A study of Populus davidiana with 6 samples.

Results

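The loci described here are those whose RNA level hardly varied between leaves of control and air-dried poplar. The expression of all transcripts of a locus was added up in each of 6 libraries. A locus was kept when at least 1 of its transcripts carried a Populus trichocarpa gene identifier and its genomic span, introns included, was between 500 and 8000 bases. Its sum also had to reach 30 FPKM in every library with a control mean under 300 FPKM, and the highest of the 6 values had to lie no more than 15% above the lowest. FPKM counts fragments relative to transcript length and to the depth of the library. Of 40537 loci in all, 3060 met the criteria on annotation, span and level, and 305 of these also met the limit on the ratio. They are called steady loci below. They were chosen by the FPKM measured in all 6 libraries, so their levels, ratios and group means are given as a description, without a test.

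Leaf RNA of Populus davidiana, the Korean aspen, was read by poly(A) RNA sequencing at the seedling stage of Palgong2, a cultivar labelled drought tolerant. Both groups were propagated in vitro on sugar-containing medium under 16 h of light and 8 h of dark, and were about 6 weeks old. The 3 control libraries came from control plants, and the 3 air-dried libraries from plants lifted out of the medium, rinsed with sterile water and kept in the open for some 10 min. The sources used here do not say whether control plants were lifted and rinsed as well, so drying and handling cannot be told apart. The labels speak of triplicate leaf samples and do not state from how many plants they came, so p-values here measure the spread between samples only, and that spread may be technical.

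The level of an RNA in a tissue reflects how fast it is made and how fast it decays, and a level can hold steady while both rates shift. Loci with steady RNA are often used as internal references when other genes are compared between conditions. FPKM are relative values: each locus is expressed against the rest of its library, so a steady FPKM is a steady share of the measured RNA and not a steady number of molecules per cell. In whole leaves, fewer cells of a type and less RNA per cell cannot be told apart.

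The depth of the libraries is unknown, since the files give FPKM and no counts. Between 22227 and 22702 loci reached 1 FPKM in each library. Across 21166 tested loci, those without transcripts shorter than 500 bases, log2 values correlated between control libraries with Pearson's r of 0.977 to 0.984, and air-dried replicate 1 was at 0.961 and 0.965 with the other air-dried libraries, which were at 0.987 with each other. Over the 22729 loci that reached 1 FPKM in 3 or more libraries, 1655 rose and 638 fell on air-drying (limma on log2(FPKM + 1), Benjamini-Hochberg adjusted p under 0.05). This balance moved with the scaling, to 1313 and 1031 after median-of-ratios scaling, 1104 and 1305 after upper-quartile scaling and 996 and 1191 after quantile normalization. The files give no gene names or descriptions, so the steady loci are given by position, in the coordinates of the deposited files on a build not given in the sources used here, and markers of leaf cell types could not be looked up.

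The ratio of highest to lowest FPKM among the steady loci ranged from 1.04 up to the limit, with a median of 1.12. At 4 loci the highest value lay 5% or less above the lowest, and at 78 it lay 10% or less above. The remaining 227 lay between 10% and 15%, and the next class, from 15% to 20%, held 364 loci that did not meet the limit. The steady loci are thus the lower end of a continuous distribution and not a separate group. Over the other 2755 loci of the same annotation, span and level the median ratio was 1.35. The coefficient of variation over the 6 libraries had a median of 4.36% at the steady loci and 11.5% at the others.

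**Figure D1:**
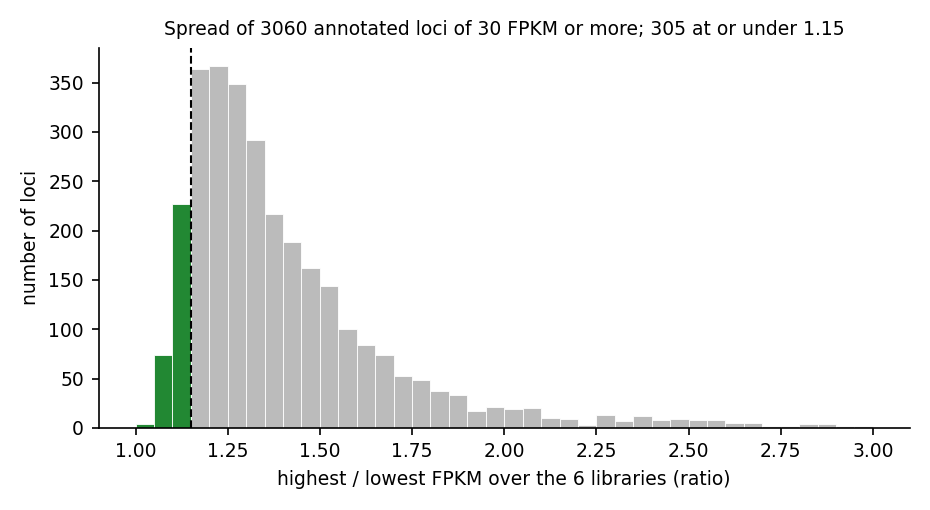
Number of loci (y axis) by the ratio of highest to lowest FPKM over the 6 libraries (x axis) among the 3060 loci that met the criteria on annotation, span and level; green bars are the 305 steady loci, and the dashed line is the limit of 15% above the lowest value. The bars rise without a gap across the limit, and 52 loci with a ratio of 3 or more lie beyond the axis.

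The steadiest locus lay on chromosome 16 at 10843425 to 10845460 (POPTR_0016s11620.r2) with a ratio of 1.04. Its FPKM was 91.0, 90.6 and 92.0 in control replicates 1, 2 and 3 and 90.1, 93.4 and 93.3 in air-dried replicates 1, 2 and 3. Air-dried replicate 1 was the lowest of all 6 libraries and the other air-dried libraries were the highest, so the groups overlapped. This locus overlaps a tested locus with another strand label, and the sources used here do not say whether the libraries kept strand, so fragments of the pair may not be separable. The second lay on chromosome 14 at 15595417 to 15600560 (POPTR_0014s18430.r1). It was at 37.9, 37.5 and 36.6 FPKM in the controls and 37.3, 37.7 and 37.9 FPKM in the air-dried libraries. Control replicate 3 was the lowest there, the air-dried values lay closer together than the controls, and the groups overlapped.

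A locus on chromosome 6 at 3533449 to 3535600 was at 138.3, 142.7 and 141.3 FPKM in the controls and 141.8, 141.6 and 143.7 FPKM in the air-dried libraries. The locus on chromosome 18 at 10051439 to 10055855 was the last of the 4 within 5%, at 54.4, 54.1 and 54.0 FPKM in the controls and 54.8, 54.9 and 52.7 FPKM in air-dried libraries. At both loci a single library, control replicate 1 in one and air-dried replicate 3 in the other, set the lower end. The locus of 14 transcripts on chromosome 2 at 7872835 to 7879674 was the seventh and the most abundant of the 12 steadiest, with 206.8 ± 6.32 FPKM (SD, n = 3) in control and 207.9 ± 4.29 FPKM (SD, n = 3) in air-dried libraries.

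A small gap between groups could still show within the limit. On chromosome 6 at 9318406 to 9320596, FPKM was 43.2, 42.9 and 43.2 in control and 45.3, 43.9 and 44.8 in air-dried libraries, so all 3 air-dried values lay above all 3 control values with means 3.56% apart. On chromosome 17 at 3020421 to 3026822, FPKM was 64.1, 64.5 and 64.0 in control and 60.6, 63.0 and 60.5 in air-dried libraries, with the air-dried values all below and a difference between means of -4.42%. At the other 10 of the 12 steadiest loci the groups overlapped. The groups did not overlap at 14.8% of all steady loci and at 32.9% of all tested loci. The count among the 12 therefore says nothing particular of them.

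**Figure D2:**
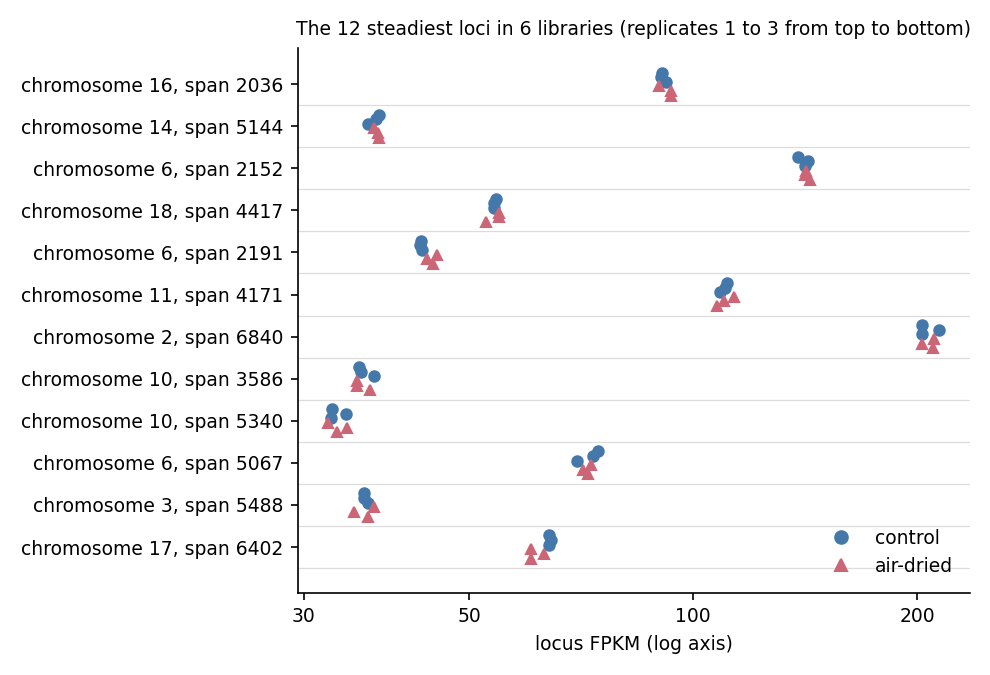
FPKM (x axis, log scale) of the 12 loci with the lowest ratio of highest to lowest value, 1 row per locus from the steadiest at the top, in control (blue circles) and air-dried (red triangles) libraries; labels give chromosome and genomic span in bases. The circles and triangles overlap in every row except the fifth, on chromosome 6, where air-dried is higher, and the last, on chromosome 17, where it is lower.

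Abundance among the steady loci spanned the range that the rule allowed. Control means ran from 31.2 to 283.6 FPKM with a median of 54.2 FPKM, against 61.9 FPKM at the 2755 others. The control mean was under 60 FPKM at 164 loci, 60 to under 120 FPKM at 98 and 120 FPKM or more at 43. The most abundant, on scaffold_22 at 207842 to 211958, was at 295.2, 282.9 and 272.8 FPKM in the controls and 283.9, 261.8 and 277.9 FPKM in air-dried libraries. The highest value was a control and the lowest an air-dried library, and the other values overlapped. The least abundant, on chromosome 6 at 24166093 to 24170473, was at 32.6, 30.9 and 30.05 FPKM in the controls and 30.1, 31.9 and 30.6 FPKM in air-dried libraries, again with overlap.

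At the limit itself the loci on either side looked alike. The last locus inside, on chromosome 3 at 10918247 to 10923089, was at 42.6, 39.6 and 38.2 FPKM in the controls and 43.9, 42.3 and 42.8 FPKM in air-dried libraries. The first locus outside, on chromosome 6 at 18249644 to 18252846, was at 53.7, 47.4 and 52.0 FPKM in the controls and 50.2, 52.4 and 46.7 FPKM in air-dried libraries. The groups overlapped at both. The 5 loci nearest inside the limit differed between group means by -3.04% to 10.97%, and the 5 nearest outside by -4.09% to 7.85%.

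No steady locus was called different between air-dried and control libraries (limma), against 10.1% of all 22729 tested loci (7.28% higher and 2.81% lower in air-dried libraries). The lowest adjusted p was 0.168, and 2 of the 305 had an unadjusted p under 0.05, against 26.3% of all tested loci. The rule itself caps the difference, so this count says nothing further about them. The air-dried mean was higher at 175 steady loci and lower at 130, with a median difference of 0.844% and a range of -8.87% to 10.97%. The groups did not overlap at 45 of the 305 (14.8%), 26 with air-dried higher and 19 lower, against 32.9% of all tested loci, 22.6% with air-dried higher and 10.3% lower.

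The largest rise of a group mean was on chromosome 14 at 10615731 to 10618737. FPKM was 43.5, 43.6 and 42.1 in control and 48.4, 47.0 and 48.0 in air-dried libraries, a mean 10.97% higher. All 3 air-dried values lay above the control values, which themselves spread over less than 2 FPKM. This mean was 4.98% higher after median-of-ratios scaling, 1.11% higher after upper-quartile scaling and differed by -0.0375% after quantile normalization. The next, on chromosome 6 at 15843003 to 15846077, was at 35.6, 35.7 and 35.9 FPKM in the controls and 40.5, 37.5 and 40.7 FPKM in air-dried libraries. It kept its direction under all 3 scalings, though by only 0.0306% after quantile normalization. The other 3 of the 5 largest rises, at 9.58% to 10.6%, became differences of -2.54% to -3.39% after quantile normalization, and 2 of these 3 were already at -0.0346% and -0.133% after upper-quartile scaling.

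The largest fall was on chromosome 1 at 5866538 to 5867482, the shortest steady locus with a span of 945 bases. FPKM was 84.7, 85.1 and 82.8 in control and 74.3, 75.2 and 80.6 in air-dried libraries, so air-dried replicate 3 lay closer to the controls than the other 2. The mean differed by -8.87%, and by -13.7%, -16.9% and -19.7% after median-of-ratios scaling, upper-quartile scaling and quantile normalization. The locus on chromosome 1 at 6431517 to 6434806 was at 185.1, 170.8 and 174.2 FPKM in the controls and 164.8, 163.9 and 161.4 FPKM in air-dried libraries, a difference of -7.54%. All 5 of the largest falls were larger under each of the 3 scalings. Median-of-ratios and upper-quartile factors lower every air-dried library against every control, so any fall had to grow under them and any rise to shrink. The change with scaling is thus no check on single loci.

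Library by library, the steady loci were centred. Their median deviation from the locus mean lay between -1.43% in control replicate 3 and 0.877% in air-dried replicate 3. At the 2755 other loci it ran from -5.52% in control replicate 2 to 4.203% in air-dried replicate 1. The rule capped the spread of the 6 values, so the small deviations at the steady loci largely follow from how they were chosen. Air-dried replicate 1 held the highest value at 73 steady loci and air-dried replicate 2 the lowest at 72. At the other loci air-dried replicate 1 was the highest at 916 and control replicate 2 the lowest at 832. No 1 library therefore set the extremes of most steady loci.

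Which loci counted as steady depended on how libraries were put on a common scale. Median-of-ratios factors were 0.974 to 0.976 in the control libraries and 1.08, 0.992 and 1.02 in air-dried replicates 1, 2 and 3. After division by them, 143 of the 305 loci stayed within the ratio limit, with a median difference between group means of -4.59%. With upper-quartile factors 56 stayed, at a median of -8.15%, and with quantile normalization 16 stayed, at a median of -10.6%. Over all tested loci the median log2 difference was 0.07 as deposited, 0.00 with median-of-ratios, -0.05 with upper-quartile and -0.05 with quantile values, and at the steady loci it was 0.01, -0.07, -0.12 and -0.16. So the steady loci lay below the median locus under each scaling. The rule held their deposited difference small, and scaling factors move all loci of a library alike. This order therefore largely follows from how the loci were chosen.

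**Figure D3:**
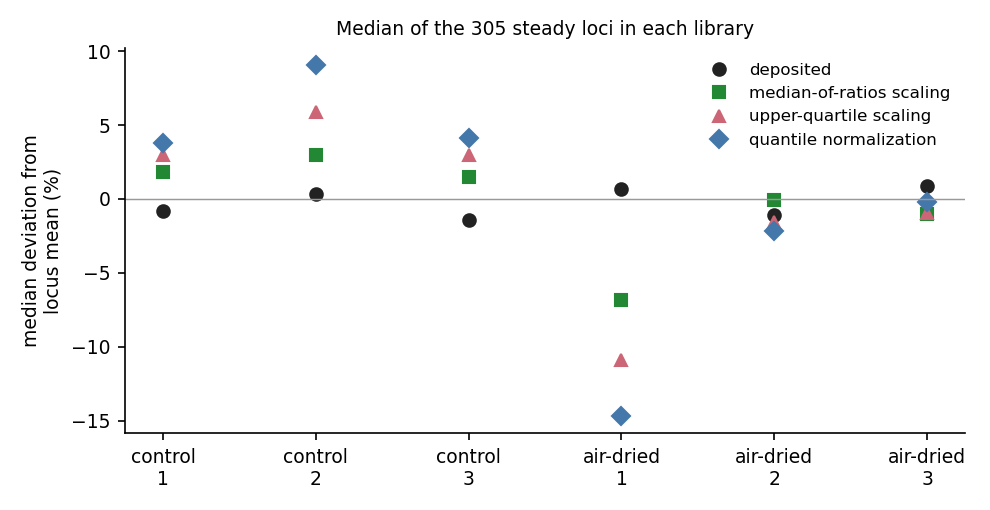
Median deviation of the 305 steady loci from each locus's own mean (y axis, %) in each library (x axis), with FPKM as deposited and after 3 other scalings. As deposited the medians lie between -1.43% and 0.877%, and air-dried replicate 1 drops to -6.84%, -10.9% and -14.7% with median-of-ratios, upper-quartile and quantile values.

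Rescaling produced other steady sets of like size or smaller. With median-of-ratios scaling 319 loci met the whole rule, of which 142 were also among the 305, which is 46.6% of the deposited set and 44.5% of the rescaled one. With upper-quartile scaling there were 257, sharing 55, and with quantile normalization 148, sharing 15. Steady under all 4 scalings were 14 loci, picked out after their values were seen. Among them the lowest deposited ratio was at chromosome 6, 2486699 to 2493380, with 34.7, 34.8 and 34.0 FPKM in the controls and 36.5, 33.6 and 34.0 FPKM in air-dried libraries. Next came chromosome 10, 9686050 to 9687964, a locus of 1 transcript with 41.2, 39.7 and 40.3 FPKM in the controls and 43.1, 39.8 and 39.5 FPKM in air-dried libraries. In both, air-dried replicate 1 was the highest library and the groups overlapped. The 14 included the largest rise, on chromosome 14, but none of the 12 steadiest loci as deposited.

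Steady loci were longer than the rest. Their median span was 4097 bases, against 3149 bases at the 2755 others. Of loci spanning at most 1000 bases 1 of 118 was steady (0.847%, 95% exact binomial interval 0.0215 to 4.63%), and of those over 1000 and up to 2000 bases 23 of 509 (4.52%, 2.89 to 6.70%). The share was 114 of 1345 (8.48%, 7.04 to 10.1%) over 2000 and up to 4000 bases and 167 of 1088 (15.3%, 13.3 to 17.6%) over 4000 bases. These intervals cover counting error only, and since loci are not replicates and the rule chose the steady ones, the shares are a description. The same order held within each of 3 classes of level: from the class of over 1000 and up to 2000 bases to that of over 4000 bases the share went from 4.47% to 16.3% under 60 FPKM, from 5.08% to 14.9% at 60 to 120 FPKM and from 3.76% to 12% at 120 to 300 FPKM. Up to 1000 bases, 0 of 39, 1 of 46 and 0 of 33 loci of these classes were steady.

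Spread within a single group followed span too. The median ratio among the 3 control libraries fell from 1.23 in the shortest class to 1.18, 1.14 and 1.12 in the longest. Level did not have this order: the steady share was 11% under 60 FPKM, 9.82% at 60 to 120 FPKM and 7.52% at 120 to 300 FPKM. FPKM times span, a rough guide to how many fragments lie behind a value since spans include introns, had a median of 245 FPKM × kb at the steady loci and 214 at the others. The part of fragment number in the spread was not tested.

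**Figure D4:**
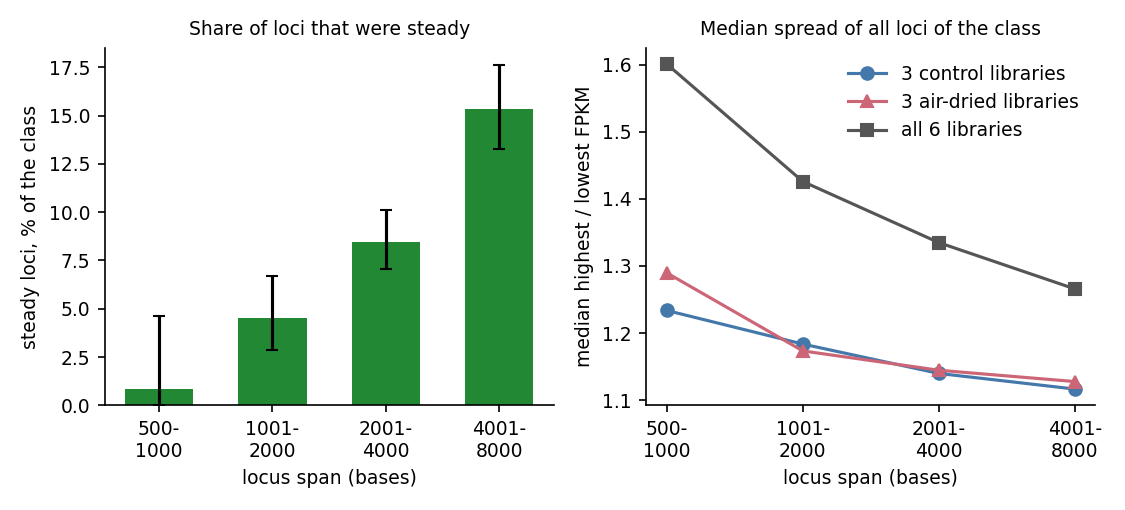
Left, share of loci that were steady (y axis, %) by genomic span in bases (x axis), with 95% exact binomial intervals; right, median ratio of highest to lowest FPKM over all 3060 loci of each class, in the 3 control, the 3 air-dried and all 6 libraries. The share climbs from 0.847% to 15.3% with span, while the control-only ratio falls from 1.23 to 1.12.

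Other features differed less. Loci of 1 transcript were steady in 36 of 500 cases (7.20%), those of 2 or 3 in 114 of 1230 (9.27%) and those of 4 or more in 155 of 1330 (11.7%). That order turned within the longest span class, where the shares were 21.2%, 16.4% and 14.7%. On chromosome 3, 29 of 159 loci were steady (18.2%, 95% exact binomial interval 12.6 to 25.1%), the highest share of the 19 chromosomes, and on chromosome 19 the lowest, 3 of 70 (4.29%, 0.893 to 12%). Over all 3060 loci the share was 9.97%. Both chromosomes were singled out as extremes after the shares were seen, so their intervals test nothing. The strands held 152 and 153 of the steady loci. Of the 305, 18 overlapped a tested locus (5.90%, against 6.90% of the others), 17 of them with another strand label.

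Transcripts that the files list as known are called annotated here, and those listed as new, which the authors assembled from the reads, are called assembled. At the 36 steady loci of 1 transcript the sum does not depend on how fragments were divided among transcripts of the locus. Their median ratio was 1.12, as over all 305, and their median span 2706 bases. The lowest ratio among them was at chromosome 10, 9942647 to 9947986, with 32.7, 34.2 and 32.6 FPKM in the controls and 32.3, 34.3 and 33.3 FPKM in air-dried libraries. One on chromosome 14 at 9717849 to 9719166 consists of 1 assembled transcript, and it is the only steady locus with no annotated transcript of its own. It was at 39.1, 42.0 and 39.7 FPKM in the controls and 42.0, 39.6 and 39.6 FPKM in air-dried libraries. Groups overlapped at both.

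Steady sums often hid unsteady transcripts. A locus can give several transcripts, through alternative splicing or alternative ends, and an estimate for each depends on how fragments common to several are divided among them. At the 269 steady loci with several transcripts the most abundant one held a median of 83.8% of the sum, against 76.7% at 2291 others. Its FPKM had a median ratio of highest to lowest of 1.21, exceeded the 15% limit at 172 loci (63.9%) and reached 2-fold at 20 (7.43%). At the others not steady the median ratio was 1.45, and 98.1% exceeded the limit and 19.1% reached 2-fold. The leading transcript's share moved by a median of 10.6 percentage points over the 6 libraries at steady loci, against 14.4 at the others. It moved by 5 points or less at 91 steady loci (33.8%, against 25.7%). It moved by 20 points or more at 72 (26.8%, against 35.2%). The rule limited the sums of steady loci, and the leading transcript held most of each sum. Its lower ratio there therefore largely follows from how the loci were chosen. It held 90% or more of the sum at 44.2% of steady loci, against 35.4% of the others. How far this bears on the movement of its share was not tested. At 53 steady loci (19.7%) the most abundant transcript was not the same one in every library, and at the others not steady this share was 24.4%.

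The widest swings, singled out after their values were seen, did not follow the groups. On chromosome 18 at 9763218 to 9767301, an assembled transcript was at 0.00319, 69.8 and 2.69 FPKM in the controls and 0.151, 62.9 and 64.5 FPKM in air-dried libraries. The annotated transcript beside it was at 61.2, 0.000988 and 66.6 FPKM in the controls and 67.5, 0.000179 and 0.00494 FPKM in air-dried libraries. By these estimates each library held almost wholly one or the other, while the sum stayed between 65.9 and 73.7 FPKM. Whether the RNA itself switched or only the division of common fragments was not tested. On chromosome 10 at 9926742 to 9929344, the annotated transcript was at 24.7, 91.5 and 23.4 FPKM in the controls and 36.4, 124.6 and 87.3 FPKM in air-dried libraries. An assembled transcript with the same ends moved the opposite way, from 93.6 FPKM in control replicate 3 to 1.42 FPKM in air-dried replicate 2. On chromosome 3 at 6718756 to 6724243, among the 12 steadiest loci, the share of the leading transcript went from 2.68% in air-dried replicate 1 to 98.5% in air-dried replicate 3. None of these 3 loci was called in the test of transcripts below, with adjusted p of 0.787, 0.605 and 0.876 (limma's diffSplice).

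The rule used sums and not their division among transcripts, so the division was tested. limma's diffSplice asked at each locus whether transcripts with at least 1 FPKM in at least 3 libraries changed unequally on the log2(FPKM + 1) scale, with p combined per locus by Simes' method and adjusted over all 10643 loci with at least 2 such transcripts. Unequal change was called at 4 of 197 steady loci (2.03%), against 1.21% of all loci tested. This share rests on 4 loci and is near the background, so it says nothing particular of the steady loci. One of the 4, on chromosome 10, rests on a transcript that passed the filter through the air-dried libraries alone.

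On chromosome 8 at 6128677 to 6130809, both transcripts are annotated and differ by a few bases at their ends. The minor one was at 2.74, 3.35 and 1.88 FPKM in the controls and 19.5, 19.4 and 16.6 FPKM in air-dried libraries, a share of 1.34% and 8.96% of the sum. All air-dried values lay far above the control values. The major one was at 189.3, 200.1 and 196.4 FPKM in the controls and 180.8, 185.4 and 200.03 FPKM in air-dried libraries, with overlap. The log2 change of the minor transcript relative to the other was 2.48, with an adjusted p of 0.000467 for the locus. The sum went from 197.9 ± 5.71 FPKM (SD, n = 3) to 207.2 ± 8.48 FPKM (SD, n = 3). The call was lost when shares were tested on an arcsine scale, with an adjusted p of 0.900, and was kept under every other alternative, each library left out included, with adjusted p of 7.63e-05 to 0.0150 (diffSplice).

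On chromosome 10 at 10974584 to 10980284, a locus of 11 transcripts, an assembled transcript was at 0.0163, 0.0668 and 0.00150 FPKM in the controls and 8.69, 8.04 and 9.71 FPKM in air-dried libraries. It was near 0 in every control library and held about the same share of the sum, 20.3% to 23.9%, in each air-dried library. It reached the 1 FPKM filter only through the libraries where it was high, so a difference was built into its entry, and the adjusted p of 1.53e-05 for the locus carries that limit (diffSplice). With no filter on low values the adjusted p was 8.62e-07. The leading assembled transcript was at 14.9, 14.5 and 14.7 FPKM in the controls and 10.1, 7.78 and 9.16 FPKM in air-dried libraries, while the annotated one was at 5.51, 6.39 and 5.27 FPKM in the controls and 7.33, 11.9 and 10.5 FPKM in air-dried libraries. Neither passed the test as a single transcript. Another assembled transcript was at 10.8, 9.47 and 10.6 FPKM in the controls and 8.28, 0.764 and 2.10 FPKM in air-dried libraries, lower in all 3 but much less so in air-dried replicate 1. Its log2 change relative to the other transcripts was -1.94, with an adjusted p of 0.0169 (diffSplice). The sum was 39.6 ± 2.14 FPKM (SD, n = 3) in control and 40.3 ± 0.714 FPKM (SD, n = 3) in air-dried libraries. Without air-dried replicate 1, 2 or 3 the transcript near 0 in the controls no longer reached 1 FPKM in 3 libraries and dropped out. The remaining transcripts then gave the locus an adjusted p of 0.00309, 0.507 and 0.483 (diffSplice). On the arcsine scale it was 0.358.

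The other 2 calls were less stable. On chromosome 1 at 47391423 to 47393088, an annotated transcript of 1606 bases span was at 4.24, 3.25 and 3.30 FPKM in the controls and 8.84, 8.67 and 6.25 FPKM in air-dried libraries. Another annotated transcript, of 1119 bases span, was at 9.39, 9.91 and 14.5 FPKM in the controls and 7.11, 6.79 and 6.67 FPKM in air-dried libraries. The groups did not overlap in either, and they moved in opposite directions. The adjusted p was 0.0270 for the locus, but 0.0662 without control replicate 2, and 0.0842, 0.158 and 0.0830 without air-dried replicates 1, 2 and 3 (diffSplice). It was 0.134 with no filter on low values and 1 on the arcsine scale.

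On chromosome 9 at 6052668 to 6056544, an annotated transcript that ends earlier than the others was at 1.62, 1.44 and 0.678 FPKM in the controls and 3.31, 5.25 and 3.72 FPKM in air-dried libraries, a share of 2.66% and 9.35% of the sum. The 3 air-dried values were all higher. The adjusted p for the locus was 0.0413, but 0.166, 0.0542 and 0.216 without control replicates 1, 2 and 3, and 0.149 and 0.147 without air-dried replicates 2 and 3 (diffSplice). With a pseudocount of 5 it was 0.118, and with the filter at 5 FPKM 0.696, and on the arcsine scale it was 1.

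**Figure D5:**
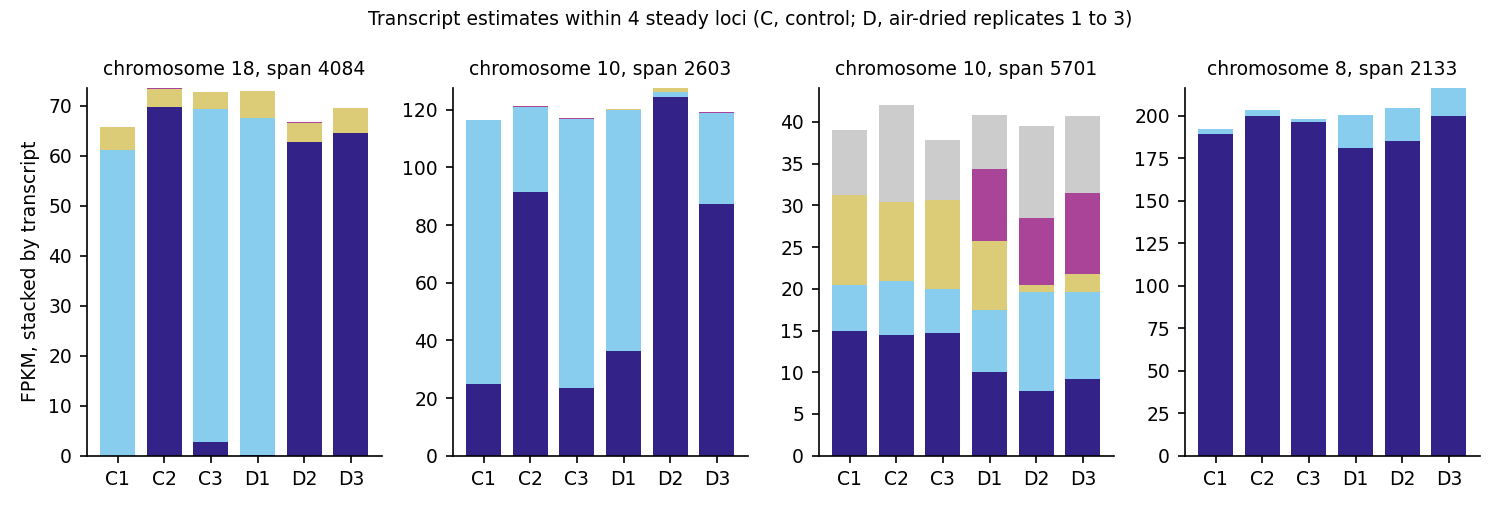
FPKM by library (y axis), stacked by transcript, in 4 steady loci; C1 to C3 are control and D1 to D3 air-dried replicates, each colour is 1 transcript within a panel, and grey is the sum of any beyond the 4 most abundant. Bar heights stay level; on chromosome 18 and at the locus of 2603 bases on chromosome 10 the colours swap between libraries of 1 group, while at the locus of 5701 bases the purple transcript reaches a visible height only in the air-dried libraries, and on chromosome 8 the light blue one grows from 1.34% to 8.96%.

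Assembled transcripts made up 29.96% to 30.6% of the summed FPKM of the steady loci in every library. A single locus could hold almost none or nearly all, with a median of 15.1%. The 4 loci with the most transcripts had 17 to 19. Of these, the one of 19 transcripts on chromosome 10 at 6641630 to 6646309 was at 42.2, 45.7 and 43.6 FPKM in the controls and 44.4, 46.3 and 44.6 FPKM in air-dried libraries. The one of 18 on chromosome 1 at 36641000 to 36647000 was at 79.5, 85.0 and 81.5 FPKM in the controls and 79.9, 83.9 and 85.7 FPKM in air-dried libraries. Groups overlapped at both.

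Some steady loci lay beside loci that changed. The rule did not use neighbours, so the nearest tested locus without overlap on the same chromosome was looked up for 304 of the 305, at a median distance of 3361 bases. It was called different between groups (limma) at 30 of them (9.87%), against 9.35% for the nearest neighbours of all tested loci, and had changed at least 2-fold at 9 (2.96%, against 2.07%). All 9 were rises, as were 415 of the 464 such neighbours over all tested loci. These shares are near the background. It was itself steady at 3 (0.987%, against 1.33%).

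One such pair, with an abundant neighbour, was on chromosome 3. The steady locus at 9567104 to 9573930 was at 67.8, 67.1 and 68.1 FPKM in the controls and 69.2, 66.4 and 72.0 FPKM in air-dried libraries. Its neighbour at 9563110 to 9564782, with 2321 bases between them, was at 95.1, 87.1 and 86.0 FPKM in the controls and 217.2, 231.3 and 235.8 FPKM in air-dried libraries. The neighbour rose 2.55-fold, with the groups far apart (log2 change 1.34 ± 0.0756 SE, limma adjusted p of 0.000360). On chromosome 15 the steady locus at 9826233 to 9831238 was at 165.1, 182.6 and 163.1 FPKM in the controls and 168.8, 162.7 and 173.3 FPKM in air-dried libraries. The locus at 9842656 to 9845099, the nearest to it at 11417 bases, was at 0.586, 0.444 and 0.480 FPKM in the controls and 27.7, 19.6 and 22.7 FPKM in air-dried libraries. It entered the test only through the air-dried libraries, since all controls were under 1 FPKM, and with no filter on low values its adjusted p was 0.000117 (limma).

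On chromosome 3 at 14747570 to 14749962 the steady locus was at 65.2, 70.2 and 63.5 FPKM in the controls and 63.1, 63.3 and 67.2 FPKM in air-dried libraries. Its neighbour at 14751228 to 14752136, 1265 bases away, was at 0.0536, 0.0603 and 0.0622 FPKM in the controls and 2.08, 2.32 and 2.30 FPKM in air-dried libraries. It too entered only through the air-dried libraries, and with no filter its adjusted p was 0.000225 (limma). A further 5 named neighbours rose by 2.27-fold to 6.06-fold in mean FPKM, and 2 of these also had all controls under 1 FPKM. The 4 neighbours of this kind drop below the filter when any air-dried library is left out, so their calls could not be checked that way. Of the other 4, 1 call was lost with libraries left out: the neighbour on chromosome 16 at 10418579 to 10419961, at 7.42 ± 2.51 FPKM (SD, n = 3) in control and 16.8 ± 2.69 FPKM (SD, n = 3) in air-dried libraries, had an adjusted p of 0.0329, which became 0.0971 and 0.102 without control replicates 1 and 2, and 0.0662, 0.0862 and 0.0941 without air-dried replicates 1, 2 and 3 (limma).

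In 2 places the nearest neighbours were both steady. On chromosome 9 the loci at 6046272 to 6051432 and 6052668 to 6056544 lie on the same strand with 1235 bases between them. The first was at 71.5 ± 3.57 FPKM in the controls and 75.4 ± 1.78 FPKM in air-dried libraries (SD, n = 3), and the second, with the short annotated transcript described above, at 46.3 ± 1.74 and 43.8 ± 0.366 FPKM (SD, n = 3). On chromosome 10 the loci at 9926742 to 9929344 and 9942647 to 9947986 lie 13302 bases apart, also on the same strand. The first was at 118.3 ± 2.65 and 122.4 ± 4.63 FPKM and the second at 33.2 ± 0.877 and 33.3 ± 0.977 FPKM (SD, n = 3) in control and air-dried libraries.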

How the data were processed

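Per the file headers, the authors deposited FPKM of 112919 transcripts for each of 6 samples, beside the locus, its position and strand and whether a transcript was known (45773, called annotated) or new (67146, called assembled). Per the submitters' processing notes, FastQC, TopHat and Cufflinks were used, with no version stated, while build, annotation and strandedness were not given in the sources used here. No depth can be read from FPKM, so no counting interval is given for a level. Intervals on shares of loci are 95% exact binomial (Clopper-Pearson, scipy 1.17.1).

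FPKM were summed per locus. On log2(FPKM + 1), loci (or, in diffSplice, transcripts) reaching 1 FPKM in 3 or more libraries were compared between groups with limma 3.58.1 (R 4.3.3), two-sided and with no covariate. A trend of variance on mean was used for loci and not in diffSplice. The p-values were adjusted by Benjamini-Hochberg over the whole table at 0.05. The fits were tested on simulated data. Fold changes on this scale understate those of low loci.

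The steady loci, the rule for naming them and the tests were chosen with earlier results of these data known. Named were the 12 lowest ratios, the 5 highest and 5 lowest control means, the 5 loci on each side of the limit, called transcript changes, the 4 loci with most transcripts and the 4 with the largest assembled share, the 5 largest rises and 5 largest falls among loci whose groups did not overlap, and up to 8 members beside a called 2-fold change; of each, the text gives those it turns on. Lists of gene functions and cell type markers could not be applied, since no name stands beside the identifiers. Alternatives were other limits on ratio, level and span, 3 scalings, pseudocounts of 0.1 and 5, other filters on low values, each library left out, a block for replicate number, weights for libraries, no trend, and an arcsine test of shares. Steadiness within 1 group alone was added after the data were seen. Figures were drawn with matplotlib 3.10.9.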

Additional observations from a re-analysis of the deposited data

How the results depend on the processing

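The number of steady loci moved from 305 to 78, 669 and 1385 with limits of 10%, 20% and 30% above the lowest value, to 666 and 134 with lowest levels of 10 and 60 FPKM, to 148 with quantile normalization, and to between 368 (without air-dried replicate 3) and 556 (without air-dried replicate 1) with 1 library left out, which by construction keeps all 305; control replicate 2 (514), air-dried replicate 1 and air-dried replicate 2 (470) each moved it by over 1.5 times. Over the 3 control or the 3 air-dried libraries alone, added after the data were seen, 1832 and 1816 loci met the rule. No steady locus was called by limma under 15 alternatives, and 2 with library weights (0.656%, against 28.3% of all tested loci). Over all tested loci, 2293 calls became 6434 with library weights and 885 to 1988 with 1 library left out (1988 without air-dried replicate 1, and 885 to 1314 without any other). Of steady loci, 4 calls of unequal transcript change became 9 with no filter, 13 with library weights, 0 on the arcsine scale and 1 to 8 with 1 library left out (8 without air-dried replicate 1, 1 without air-dried replicate 2 or 3). Over all loci, 129 such calls (1.21%) became 893 with no filter (4.98%), 566 with library weights (5.32%) and 3 on the arcsine scale (0.0282%). With 1 library left out they became 34 to 192 (192, or 1.93%, without air-dried replicate 1), and at 5 FPKM 28. The steady share was thus under that of all loci with no filter and above it with library weights. The causes were not tested.

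The labels do not say whether same-numbered samples were collected or prepared together. Their deviations from the group means correlated at 0.0568, 0.219 and -0.194 across loci. Control replicate 2 correlated slightly better, at 0.240, with air-dried replicate 3. The highest correlation, 0.296, was that of control replicate 3 with air-dried replicate 1. With 3 samples in each group these correlations cannot settle whether the samples were paired. With the replicate number as a block, calls went from 2293 to 928 over all loci and from 0 to 0 at steady loci. For unequal transcript change they went from 129 to 44 (0.413%) over all loci and from 4 to 2 (1.02%) at steady loci. The block ended the calls on chromosome 1 (adjusted p of 0.101, diffSplice) and chromosome 9 (0.0567) and that of the neighbour on chromosome 16 at 10418579 to 10419961 (0.101, limma).

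FPKM hide the fragments behind each value, so differences of a few percent cannot be set against counting error.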
